A study of Mus musculus with 27 samples.

Results

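The genes described here are 34 of glycolysis, the pentose phosphate pathway, glycogen turnover and lactate export, read in 4T1 cells, a mouse mammary carcinoma line. They were found by their symbols among the 55401 genes of the deposited table, and where a symbol had more than 1 row (Aldoa) the row with the higher total was used. RNA was measured in 27 poly-A libraries, 3 for each of 9 groups. Parental cells, with no edit named in their labels, were the control for 6 CRISPR-Cas9 knockout clones, 2 for each of 3 genes of mitochondrial fission: Drp1 (clones gs1B8 and gs2_B4), Fis1 (gs1_B11 and gs2_F6) and Mff (gs1_B4 and gs1_C8). Unedited 4T1 cells given leflunomide (Leflu) for 3 days were compared with cells given its vehicle, DMSO. Leflunomide is a prodrug whose active form inhibits dihydroorotate dehydrogenase, an enzyme of pyrimidine synthesis in mitochondria. Each knockout line is 1 clone, so a clone's own history and its knockout cannot be told apart within it. The codes are used as clone names, since the sources used here do not tie them to the clone numbers of the labels.

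Glycolysis splits glucose into pyruvate in the cytosol and yields ATP without oxygen. Glucose enters through GLUT transporters, is trapped by hexokinase, passes the controlled step of phosphofructokinase and leaves as pyruvate, which lactate dehydrogenase turns into lactate for export by monocarboxylate transporters. The pentose phosphate pathway branches off after hexokinase and supplies NADPH and ribose, and glycogen stores and returns glucose units. Tumour cells commonly take up much glucose and release lactate even with oxygen present, while the rest of the pyruvate is oxidised in mitochondria, whose division Drp1 carries out with its membrane receptors Mff and Fis1.

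Library totals ran from 18492020 to 31295937 counts. DMSO replicate 3 stood apart: the ribosomal RNA precursor took 23.2% of this library and 1.60% to 5.72% of each of the rest. The targeted transcripts were kept at 18.7% to 54.4% of the parental level in the clones labelled as lacking them. Of 6 epithelial markers, Krt8, Krt18, Epcam and Cdh1 were present at 132 CPM or more in every library (CPM, counts scaled to a common library size), Krt14 ran from 5.66 to 236 CPM and Krt5 reached at most 0.0588 CPM. The summed markers of leukocytes (6 genes, at most 0.213 CPM), endothelium (5 genes, at most 0.469 CPM) and erythroid cells (5 genes, at most 0.118 CPM) were near 0. Fibroblast markers (6 genes) summed to 2.25 to 8.16 CPM, nearly all of it Pdgfra. The labels do not state whether replicates came from separate cultures, and the p-values therefore cover the spread among these libraries, which may be technical.

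Of the 34 genes, 30 passed the filter on low counts in both arms. The steps of lower glycolysis had the highest RNA levels. Per kilobase of exon, the level in parental cells was 513 CPM for Pgk1 (phosphoglycerate kinase, the first step that makes ATP), 477 for Pkm (pyruvate kinase), 461 for Pgam1 (phosphoglycerate mutase) and 352 for Ldha (lactate dehydrogenase A). On the same per-kilobase scale the entry steps were far lower, at 13.3 CPM for Slc2a1 (the glucose transporter GLUT1), 15.9 for Hk1 and 12.3 for Hk2 (hexokinases), and 23.8 for Pfkl, the most abundant of the 3 phosphofructokinase genes. Pfkp (3.96 CPM per kilobase) and Pfkm (3.65) were at similar levels to each other.

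The other 4 genes were close to undetected. Slc2a3 (the transporter GLUT3) had 6 to 17 counts per group. Ldhb, the other lactate dehydrogenase subunit, had 41 counts over all 27 libraries, of which 22 were in gs2_B4, and 0 in 4 groups. Slc16a3 (the lactate exporter MCT4) had 2 counts in parental replicate 2, 1 in gs1B8 replicate 2, 1 in leflunomide replicate 3 and 0 in the other libraries, and Pygl (liver glycogen phosphorylase) had 6. A count of 0 over a group allows a level of up to 0.0372 to 0.0498 CPM, depending on the group's depth, and covers counting error only. The lactate exporter read in these cells was therefore Slc16a1 (MCT1), at 253 ± 19.3 CPM (SD, n = 3) in parental cells, with its chaperone Bsg (basigin) at 281 ± 15.2 CPM. Glycogen phosphorylase was read as the brain form Pygb (56.2 ± 3.40 CPM).

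The 34 genes took 1.01% ± 0.0631 (SD, n = 3) of the counts outside all ribosomal RNA genes in parental cells, 0.842% ± 0.0169 in gs1_B4 and 0.788% ± 0.00665 in gs1_C8. In gs1_B11 it was 0.924% ± 0.00901, in gs2_B4 0.938% ± 0.0559, in gs1B8 1.01% ± 0.0359 and in gs2_F6 1.05% ± 0.0172. Both Mff clones and the Fis1 clone gs1_B11 lay below the lowest parental library (0.970%), and the other 3 clones overlapped the parental range. The exact two-sided permutation p was 0.10 for each of the 3 lower clones, the smallest that 3 against 3 libraries allow (0.175 adjusted over 7 comparisons). In bulk RNA, fewer cells that express a gene and less RNA per cell cannot be told apart.

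**Figure D1:**
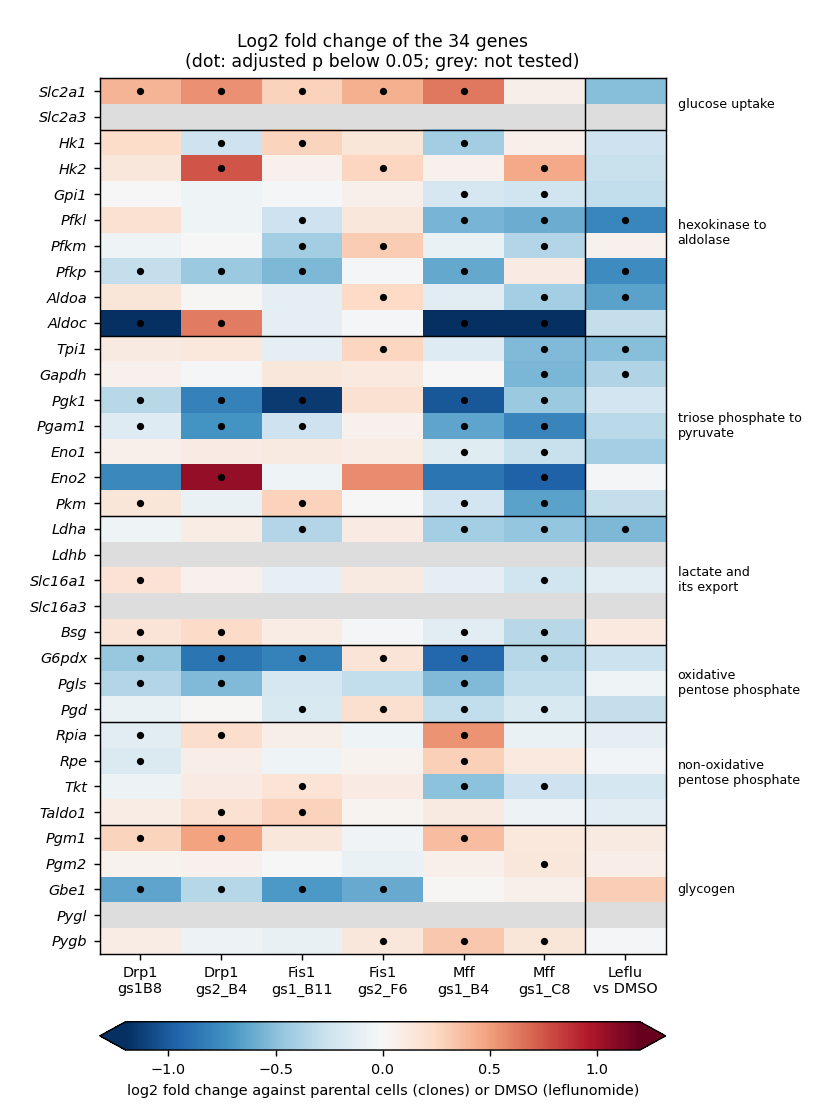
Log2 fold change of each of the 34 genes (rows, by role) in the 6 knockout clones against parental cells and in leflunomide against DMSO (columns); dots mark an adjusted p below 0.05 and grey marks the 4 genes that were not tested. Blue fills most of the Mff columns and the leflunomide column, Slc2a1 is red in the clone columns, faintly in gs1_C8, and Gbe1 is blue in the Drp1 and Fis1 columns only.

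Each clone was compared with parental cells to ask how the pathway differed where a fission gene was disrupted. Calls are at an adjusted p below 0.05 (edgeR's quasi-likelihood test, Benjamini-Hochberg over 13940 genes). In gs1B8, 5 of the 30 tested genes rose and 9 fell, where 29.5% of all genes were called (12.1% higher, 17.4% lower). These 14 calls became 9 without gs1B8 replicate 1, gs1B8 replicate 3 or parental replicate 2, where 24.1%, 24.2% and 24.6% of all genes were called. In gs2_B4, 8 rose and 7 fell, where 50.3% of all genes were called (24.1% higher, 26.3% lower). In gs1_B11, 5 rose and 9 fell, where 47.3% were called (21.4% higher, 25.9% lower). In gs2_F6, 8 rose and 1 fell, where 31.3% were called (13.1% higher, 18.2% lower). The Mff clones had the most lower calls. In gs1_B4, 5 rose and 15 fell, where 47.7% were called (20.9% higher, 26.8% lower), and in gs1_C8, 3 rose and 18 fell, where 46.7% were called (21.5% higher, 25.2% lower). Every one of the 30 tested genes was called in at least 1 clone, and 14 were called in both directions over the 6 clones. The shares of all genes for these counts were not computed. Since 29.5% to 50.3% of all genes were called per clone, the counts are not read as a trait of the members. None of the 30 was called with the same sign in all 6 clones (edgeR), where 2.64% of all genes were.

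The median log2 fold change of the 30 genes was -0.15 in gs1_B4 and -0.26 in gs1_C8, beside -0.02 over all genes in both. In the other clones the medians ran from -0.07 in gs1_B11 to 0.10 in gs2_F6, beside -0.01 to 0.00 over all genes.

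The RNA of the transporter Slc2a1 rose in 5 of the 6 clones. Slc2a1 (ENSMUSG00000028645.11, GRCm38 chromosome 4, 119108711 to 119137983, + strand) stood at 44.0, 45.0 and 50.8 CPM in the 3 parental libraries. It stood at 62.2, 59.6 and 63.7 CPM in gs1B8 and at 63.1, 67.8 and 73.4 CPM in gs2_B4. In gs1_B11 the values were 53.2, 58.5 and 57.6 CPM, and in gs2_F6 60.9, 61.9 and 65.5 CPM. All 12 Drp1 and Fis1 libraries lay above the highest parental library. In gs1_B4 the values were 69.6, 71.7 and 75.0 CPM, again all above parental cells, while gs1_C8 (48.9, 50.0 and 47.4 CPM) lay inside the parental range. The rise of Slc2a1 ran from log2 0.28 ± 0.06 (SE, gs1_B11) to 0.63 ± 0.06 (gs1_B4), with adjusted p of 0.0009 and 5.1e-08 at these ends. In gs1_C8 the difference was 0.07 ± 0.06 (adjusted p = 0.40), and gs1_C8 was lower than gs1_B4 by a called difference of -0.56 ± 0.06.

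For the hexokinases, the clones of each genotype differed. Hk2, the hexokinase often high in tumours, stood at 73.5, 73.8 and 73.6 CPM in parental cells and at 124, 119.6 and 129 CPM in gs2_B4. It stood at 101, 97.6 and 104 CPM in gs1_C8 and at 83.4, 81.9 and 98.2 CPM in gs2_F6. Hk2 rose in these 3 clones, by log2 0.75 ± 0.07, 0.45 ± 0.07 and 0.25 ± 0.07 (SE). It stood at 81.1, 77.7 and 83.2 CPM in gs1B8, at 79.3, 74.8 and 75.3 CPM in gs1_B11 and at 69.4, 73.3 and 86.6 CPM in gs1_B4. The parental libraries lay very close together, and all clones but gs1_B4 were above them. In gs1B8, gs1_B11 and gs1_B4 the Hk2 difference was between 0.05 and 0.13 and was not called. Hk1, the broadly expressed hexokinase, rose in gs1_B11 (0.27) and fell in gs2_B4 (-0.25) and gs1_B4 (-0.42). On the log2 scale the Hk2 to Hk1 ratio was 1.00 higher in gs2_B4, 0.48 higher in gs1_B4 and 0.39 higher in gs1_C8 than in parental cells, and lower in gs1_B11 (-0.22), with no overlap between libraries in these 4. The exact permutation p of each was 0.10, the smallest that 3 against 3 allows (0.165 adjusted over 28 ratios compared).

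**Figure D2:**
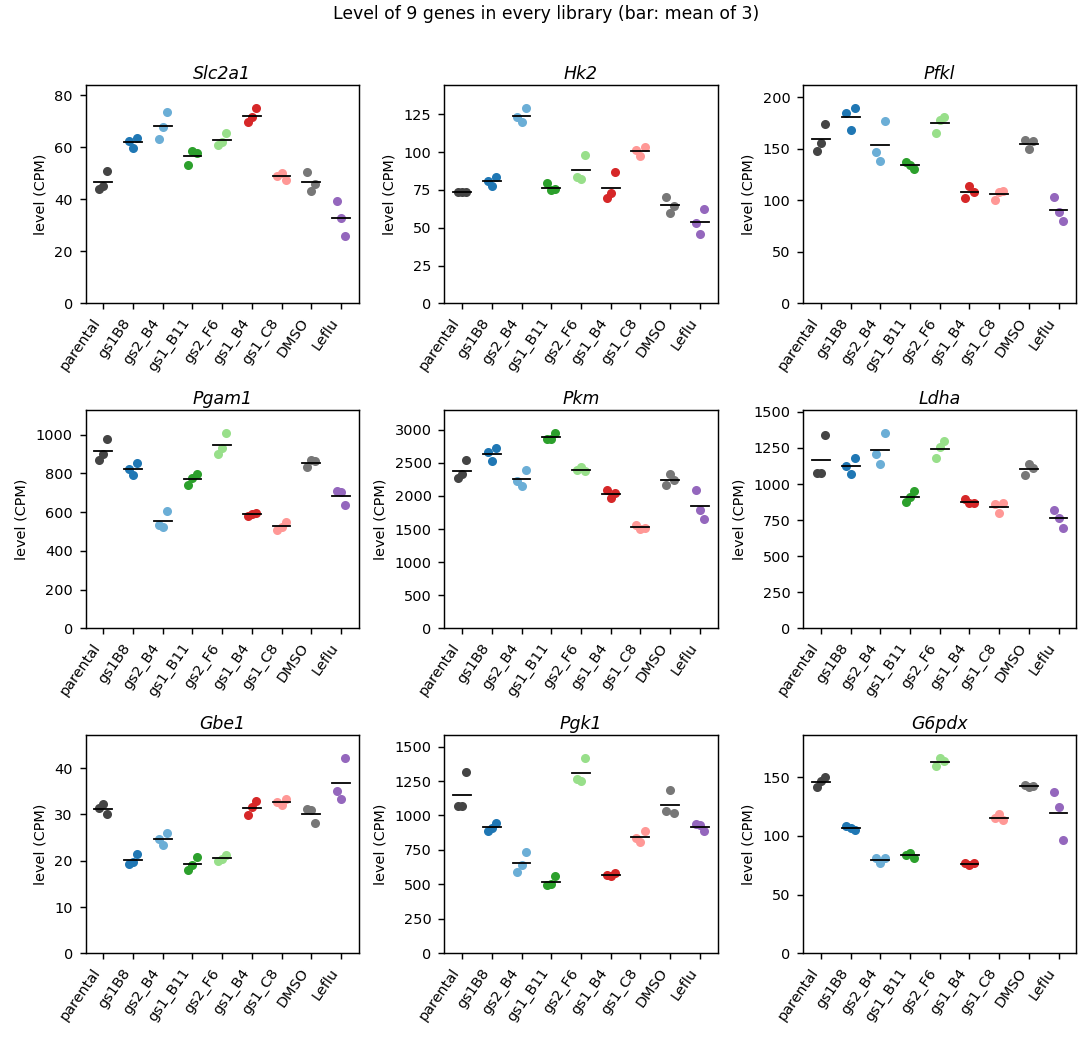
Level of 9 of the genes in every library, in CPM from 0, with 3 points per group and a bar at their mean. Slc2a1 is above parental cells in 5 clones, Pfkl, Pgam1 and Ldha are low in both Mff clones (gs1_B4 and gs1_C8), and Gbe1 is low in the 4 Drp1 and Fis1 clones.

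In both Mff clones 12 of the 30 tested genes fell, where 11.3% of all genes fell in both, and 1 rose, where 7.37% did. Those that fell were Gpi1 (phosphoglucose isomerase), Pfkl, Aldoc, Pgk1, Pgam1, Eno1 (enolase), Pkm, Ldha, Bsg, G6pdx, Pgd and Tkt. Of the 15 enzyme genes from hexokinase to pyruvate, 9 fell and 0 rose in gs1_B4 (26.8% and 20.9% of all genes). In gs1_C8, 12 of them fell and 1 (Hk2) rose (25.2% and 21.5% of all genes). The 1 gene higher in both was Pygb, at log2 0.32 and 0.14. Eno1 and Bsg were close to the threshold in gs1_B4 (adjusted p of 0.019 and 0.036) and lost the call there under 8 and 12 of the alternatives run. Pygb lost it in gs1_C8 under 3, among them the fit without parental replicate 3. The 6 fibroblast markers summed to 4.28 to 4.42 CPM in parental cells, 4.96 to 6.83 CPM in gs1_B4 and 6.48 to 8.16 CPM in gs1_C8, with Col3a1 and Lum at 0 counts in every library, and their part in the result was not tested.

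Pfkl is the liver-type subunit of phosphofructokinase. Its libraries stood at 148, 155 and 174 CPM in parental cells, at 102, 114 and 108 CPM in gs1_B4 and at 101, 108 and 109 CPM in gs1_C8. No Mff library reached the lowest parental library. Pfkl thus fell by 0.56 ± 0.08 and 0.59 ± 0.08 on the log2 scale (SE; adjusted p 5e-06 and 2.9e-06). The Drp1 clones (138 to 189 CPM) overlapped parental cells and were not called, and gs1_B11 (137, 134 and 130.3 CPM) was lower at -0.25 ± 0.08. Pfkp, the platelet-type subunit, did not follow Pfkl. It fell in gs1_B4 (-0.62 ± 0.09) and stood at 0.10 ± 0.08 in gs1_C8 (adjusted p = 0.35), so the Pfkp to Pfkl ratio in gs1_C8 was 0.69 higher on the log2 scale than in parental cells. The same ratio was lower in gs1B8 (-0.47), gs2_B4 (-0.40) and gs1_B11 (-0.29), also without overlap.

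Ldha makes lactate from pyruvate. It stood at 1079, 1075 and 1340.1 CPM in parental cells, at 896, 865 and 869 CPM in gs1_B4 and at 860.3, 799.8 and 865 CPM in gs1_C8. Parental replicate 3 was well above the other parental libraries, and both Mff clones lay below all 3. The differences were -0.41 ± 0.07 and -0.47 ± 0.07 (SE, adjusted p of 0.00011 and 2.7e-05). Ldha was also lower in gs1_B11 (873, 914 and 954 CPM, -0.35 ± 0.07). In the 2 Drp1 clones and gs2_F6 it lay between -0.05 and 0.10 and was not called. The calls of Pfkl, Ldha, Pkm, Pgam1, Gpi1 and Tkt in both Mff clones were lost under none of the alternatives run.

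Pkm encodes pyruvate kinase M, and the gene-level counts do not separate its PKM1 and PKM2 forms. Parental libraries held 2275, 2332 and 2545 CPM, gs1_B4 held 2093, 1968 and 2039 CPM, and gs1_C8 held 1565, 1506 and 1516 CPM. Both Mff clones were below every parental library, and gs1_C8 was the lower of them by a called -0.41 ± 0.04. In gs1_B11 Pkm rose (2856, 2859 and 2949 CPM, 0.28 ± 0.04), so this step differed in sign between clones of different genotypes. Gapdh, often used as a reference gene, had estimates of -0.02 to 0.13 in 5 clones (none called) and fell in gs1_C8 by 0.55 ± 0.06, where Tpi1 fell by 0.53 ± 0.08 and Aldoa by 0.41 ± 0.07. All 7 genes from triose phosphate isomerase to pyruvate kinase fell in gs1_C8, against 4 of 7 in gs1_B4. Of all genes, 25.2% and 26.8% fell in these clones, in the same order.

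Pgam1, the mutase that makes 2-phosphoglycerate, was low in 3 clones by more than 0.5 on the log2 scale. It stood at 866, 901 and 976 CPM in parental cells, at 580.4, 590.3 and 593 CPM in gs1_B4, at 508, 525 and 551 CPM in gs1_C8 and at 534, 525 and 605 CPM in gs2_B4. These 9 clone libraries lay far below the parental range. Pgam1 lies on chromosome 19, and the median log2 fold change of the 478 tested genes of chromosome 19 was -0.58 in gs2_B4, -0.31 in gs1_C8 and -0.21 in gs1_B4. Pgam1 itself was at -0.72, -0.79 and -0.64 there. Scaled against the genes of its own chromosome, an alternative chosen after the data were seen, Pgam1 was at -0.15 in gs2_B4, -0.49 in gs1_C8 and -0.41 in gs1_B4, all called.

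Chromosome X also shifted as a whole. Pgk1 (ENSMUSG00000062070.12, chromosome X, 106187100 to 106203699) and G6pdx (ENSMUSG00000031400.10, chromosome X, 74409483 to 74429194), which encodes glucose-6-phosphate dehydrogenase, the entry to the oxidative pentose phosphate branch, are the 2 members there. G6pdx stood at 142, 146 and 149.8 CPM in parental cells. It stood at 108, 107 and 105 CPM in gs1B8, 81.4, 76.6 and 81.1 CPM in gs2_B4, 83.5, 85.1 and 81.4 CPM in gs1_B11, 77, 74.8 and 76.5 CPM in gs1_B4, and 115, 118 and 113 CPM in gs1_C8. These 15 libraries were all below parental cells, and gs2_F6 (159, 166 and 163 CPM) was above. The log2 fold changes of G6pdx were -0.45, -0.87, -0.81, -0.94 and -0.34 in the 5 lower clones and 0.16 in gs2_F6, each with an SE of 0.04 and each called.

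Pgk1 was low in the same 5 clones. Its log2 fold changes were -0.33 in gs1B8, -0.82 in gs2_B4, -1.14 in gs1_B11, -1.01 in gs1_B4 and -0.45 in gs1_C8, each with an SE of 0.08 and each called, and 0.19 ± 0.08 in gs2_F6 (adjusted p = 0.084). The median of the 421 tested genes of chromosome X was -0.23 in gs1B8, -0.50 in gs2_B4, -0.73 in gs1_B11, 0.04 in gs2_F6, -0.72 in gs1_B4 and -0.09 in gs1_C8. Both genes were thus low where the chromosome's genes were low as a set, and by more than its median in each of these 5 clones. With scaling within each chromosome, G6pdx was at -0.23, -0.35, -0.23 and -0.26 in gs1B8, gs2_B4, gs1_B4 and gs1_C8 (all called) and at -0.09 in gs1_B11 (not called). Pgk1 under that scaling was at -0.11 in gs1B8 (not called), -0.30 in gs2_B4, -0.43 in gs1_B11, -0.31 in gs1_B4 and -0.37 in gs1_C8. A near-identical Pgk1 copy, Pgk1-rs7, took 4.42 to 73.6 CPM in the parental libraries, and adding it to Pgk1 changed none of these calls.

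**Figure D3:**
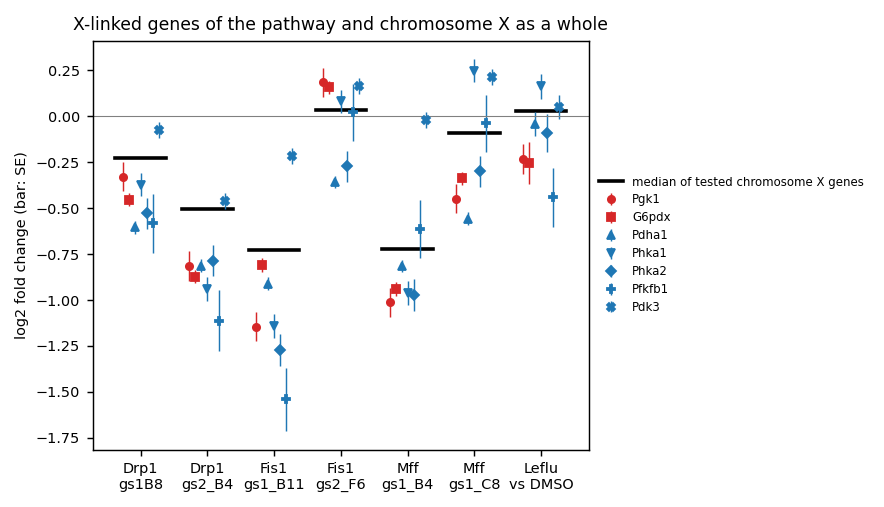
Log2 fold change with SE (bars) of Pgk1 and G6pdx (red) and of 5 other X-linked genes of glucose metabolism (blue), for each clone against parental cells and for leflunomide against DMSO; thick lines mark the median of the tested chromosome X genes. Where the line is low most points sit at or below it, Pdk3 excepted, and the line is near 0 in gs2_F6 and with leflunomide.

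Chromosome 8, which carries Pgls (6-phosphogluconolactonase, the second oxidative step), had a median of -0.24 to -0.57 in the 6 clones. Pgls had estimates between -0.20 and -0.53 in all 6 and was called lower in gs1B8, gs2_B4 and gs1_B4. Scaled within its chromosome, Pgls was called in no clone by edgeR, with estimates of -0.26 to 0.05. Chromosome 14, with Tkt (transketolase, the enzyme that links the pentose branch back to glycolysis), had a median of -0.22 in gs1_B4 and of 0.15 to 0.26 in the other clones. Tkt fell in gs1_B4 (-0.50 ± 0.05) and gs1_C8 (-0.25 ± 0.05), and with scaling within its chromosome it was at -0.28 and -0.41, both called. Chromosome 10, with Pfkl, had a median of -0.16 and -0.14 in the Mff clones, and Pfkl scaled within it was at -0.39 and -0.44, both called, while in gs1B8 and gs2_F6 it was then called higher (0.24 and 0.28). Ldha, on chromosome 7 with medians of -0.02 and 0.00, was at -0.39 and -0.48. With that scaling, 10 genes fell in both Mff clones, where 7.41% of all genes did, and 0 rose, where 6.92% did.

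In both Drp1 clones 3 genes rose (Slc2a1, Bsg and Pgm1), where 7.94% of all genes did, and 6 fell (Pfkp, Pgk1, Pgam1, G6pdx, Pgls and Gbe1), where 12.1% did. Pgm1, a phosphoglucomutase that links glycogen to glycolysis, rose by 0.26 ± 0.06 and 0.48 ± 0.06 (SE), and its libraries (36.5 to 38.7 CPM in gs1B8 and 41.4 to 45.6 CPM in gs2_B4) all lay above parental cells (29.2 to 32.6 CPM). Pgam1 and Pgls in gs1B8 were near the threshold (adjusted p of 0.045 and 0.038) and lost the call under 11 and 10 of the alternatives. In both Fis1 clones 1 gene rose (Slc2a1), where 5.94% of all genes did, and 1 fell (Gbe1), where 9.02% did. Without parental replicate 3, 3 genes rose and 1 fell in both. The shares of all genes in that fit were not computed.

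Gbe1, the glycogen branching enzyme, was low in the 4 clones of Drp1 and Fis1 and was not called in Mff clones. It stood at 31.3, 32.3 and 30.1 CPM in parental cells, at 19.4, 19.7 and 21.5 CPM in gs1B8 and at 24.7, 23.4 and 26 CPM in gs2_B4. It stood at 18.1, 19.2 and 20.9 CPM in gs1_B11 and at 19.9, 20.5 and 21.2 CPM in gs2_F6. All 12 of these libraries were below every parental library. In gs1_B4 (29.9, 31.6 and 32.9 CPM) and gs1_C8 (32.7, 32.1 and 33.3 CPM) the ranges overlapped parental cells. The log2 fold changes were -0.63, -0.34, -0.69 and -0.61 in the Drp1 and Fis1 clones and 0.01 and 0.07 in the Mff clones, each with an SE of 0.06. The 4 lower calls were lost under none of the alternatives run, and the median of chromosome 16, where Gbe1 lies (70313949 to 70569716), was within 0.09 of 0 in every clone. Between genotypes, on counts summed per clone with 2 clones each, Gbe1 had an unadjusted p of 0.0063 for Mff against Fis1 and was called by DESeq2 but not by edgeR.

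The 3 genotypes were also compared with each other on those sums. By edgeR 0 of the 31 genes tested there were called in each of the 3 contrasts, where 0 to 1 of 15513 genes (at most 0.00645%) were called. At an unadjusted p under 0.05, 8 genes were counted for Mff against Drp1, 7 for Mff against Fis1 and 0 for Fis1 against Drp1, where 6.14%, 8.33% and 2.05% of all genes reached that level. DESeq2 called 0, 1 (Gbe1) and 0 of the 34 genes in the same order, where it called 216, 372 and 16 of all 55401 genes. The contrast rests on 2 clones per genotype.

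The clones of each genotype were compared with each other as well. Of the 30 genes, 8 were higher and 7 lower in gs2_B4 than in gs1B8, where 41% of all genes were called (20.1% higher, 20.9% lower). In gs1_C8 against gs1_B4, 7 were higher and 14 lower, where 54.7% were called (28.3% higher, 26.4% lower). In gs2_F6 against gs1_B11, 14 were higher and 4 lower, where 47.6% were called (22.9% higher, 24.7% lower). Over the 3 pairs, 26 of the 30 differed at least once. The share of all genes that did so was not computed. With 41% to 54.7% of all genes called per pair, this count is not read as a trait of the members. Against parental cells, the Drp1 clones were called in opposite directions for 2 of the genes (2.07% of all genes) and the Fis1 clones for 3 (5.29%), while the Mff clones were for 0 (8.69%). The Fis1 clones differed most in Pgk1 (1.33 ± 0.08, gs2_F6 above gs1_B11), G6pdx (0.97 ± 0.04) and Pfkm (0.73 ± 0.09). Aldoc, the brain-type aldolase, had the widest range. Its parental libraries held 1.64, 1.32 and 2.39 CPM, gs1B8 held 0.697, 0.648 and 0.530 CPM, and gs2_B4 held 2.45, 2.66 and 3.10 CPM, with no overlap among the 3 groups. In the Mff clones it stood at 0.512, 0.578 and 0.292 CPM in gs1_B4 and at 0.0736, 0.0726 and 0.178 CPM in gs1_C8. The gs1_C8 value rests on 8 counts in 3 libraries, against 119 in parental cells, and its fitted difference was -4.03 ± 0.36. Aldoa, the major aldolase at 485 ± 54.0 CPM in parental cells, differed by at most 0.41 in any clone.

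Rpia, which makes ribose 5-phosphate for nucleotides, was low in gs1B8 (50.1, 49.1 and 51.2 CPM), high in gs2_B4 (64.2, 63.3 and 64.1 CPM) and highest in gs1_B4 (81.4, 82.2 and 77.2 CPM), against 54.8, 52.8 and 57.6 CPM in parental cells. Its rise in gs1_B4 was 0.54 ± 0.05 and the largest among the non-oxidative branch in any clone, and in gs1_C8 it was at -0.08 ± 0.05. Pfkm, the muscle-type phosphofructokinase, stood at 11.7, 12.3 and 12.6 CPM in parental cells, 9.75, 8.89 and 8.75 CPM in gs1_B11 and 14.2, 14.8 and 16.4 CPM in gs2_F6. Pgd, the enzyme of the last oxidative pentose step, stood at 203, 217 and 210.4 CPM in parental cells, 182, 186 and 187 CPM in gs1_B11 and 242, 254 and 227 CPM in gs2_F6. For both genes the Fis1 clones lay on opposite sides of every parental library.

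Most of the remaining members differed by less than 0.3 on the log2 scale in every clone. Gpi1 was called in the Mff clones and in no other, at 201 ± 11 and 196 ± 7.07 CPM (SD, n = 3) against 231 ± 8.58 CPM in parental cells, with log2 fold changes of -0.20 and -0.24. Slc16a1 rose in gs1B8 (0.18 ± 0.06) and fell in gs1_C8 (-0.24 ± 0.06). Chromosome 3, where Slc16a1 lies, had a median of -0.30 in gs1_C8. Taldo1, transaldolase of the non-oxidative branch, rose in gs2_B4 (0.18 ± 0.05) and gs1_B11 (0.27 ± 0.05), where every library was above parental cells (68.2 to 75.0 CPM). Rpe, which interconverts pentose phosphates, fell in gs1B8 (-0.17 ± 0.06) and rose in gs1_B4 (0.29 ± 0.06). Chromosome 1, where Rpe lies, had a median of 0.24 in gs1_B4. Pgm2, a second phosphoglucomutase, was called in gs1_C8 and in no other clone (0.13 ± 0.05). Its chromosome 5 had a median of 0.24 in gs1_C8. Eno2, the neuronal enolase, had 18 to 75 counts per group and rose in gs2_B4 (1.06 ± 0.30) and fell in gs1_C8 (-0.97 ± 0.35).

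**Figure D4:**
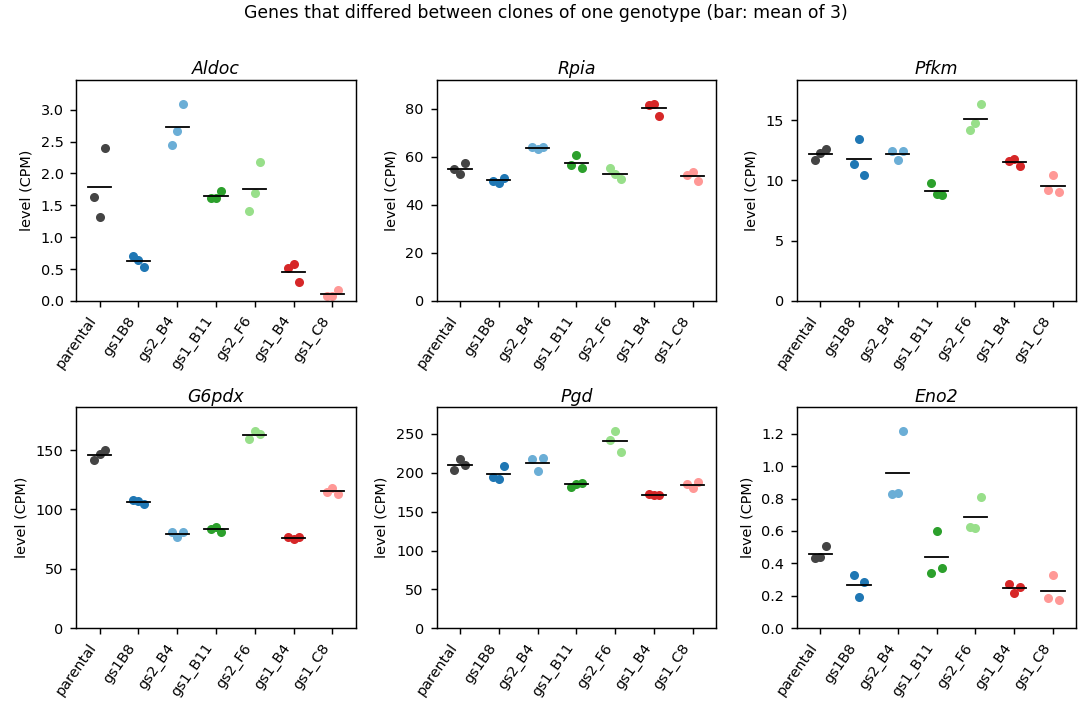
Level in every knockout-arm library, in CPM from 0, of 5 genes called in opposite directions in the clones of a genotype (Aldoc, Rpia, Pfkm, G6pdx, Pgd) and of Eno2, added after its values were seen. Bars mark means of 3; the paired clones stand side by side, and Eno2 stays near or below 1 CPM.

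Leflunomide was compared with DMSO to ask whether the drug changed the same pathway in unedited cells. Of the 30 genes tested, 6 fell and 0 rose, where 0.944% of 12603 genes fell and 1.84% rose (2.79% called in all, edgeR, adjusted p below 0.05). The 6 were Pfkp, Pfkl, Aldoa, Tpi1, Gapdh and Ldha, which cover phosphofructokinase, aldolase, the triose steps and lactate dehydrogenase. The median log2 difference of the 30 genes was -0.25, beside 0.00 over all genes. In 16 of the 30, all leflunomide libraries lay below all DMSO libraries, as they did for 12.3% of all genes tested, and in 2 (Pgm2 and Gbe1) they lay above, as for 14%.

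Pfkl stood at 159, 149 and 157 CPM with DMSO and at 103, 88.4 and 79.6 CPM with leflunomide, a difference of -0.78 ± 0.10 (SE, adjusted p = 0.0099). Pfkp stood at 55.3, 56.4 and 58.0 CPM with DMSO and at 32.3, 33.6 and 34.8 CPM with leflunomide (-0.75 ± 0.06, adjusted p = 0.0018). Both phosphofructokinase genes were thus at 58.3% and 59.4% of the DMSO level, and Pfkm was at 0.05 ± 0.11 (adjusted p = 0.82). On the log2 scale the Pfkm to Pfkl ratio was 0.84 higher with leflunomide, with no overlap (exact permutation p = 0.10, the smallest possible).

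Aldoa stood at 427, 419 and 453 CPM with DMSO and at 308, 279 and 248 CPM with leflunomide (-0.64 ± 0.09, adjusted p = 0.015). Ldha stood at 1061, 1140.2 and 1109 CPM and then at 819, 767 and 698 CPM (-0.54 ± 0.08, adjusted p = 0.019). Tpi1, triose phosphate isomerase, stood at 321, 354 and 358 CPM and then at 269, 232 and 225 CPM (-0.51 ± 0.09, adjusted p = 0.029). None of these libraries overlapped between the groups. Gapdh stood at 417, 446 and 384 CPM and then at 333, 308 and 332 CPM (-0.36 ± 0.08), just past the threshold (adjusted p = 0.04995). Pgam1 (-0.33 ± 0.07, adjusted p = 0.052) and Slc2a1 (-0.51 ± 0.14, adjusted p = 0.097) did not pass. Slc2a1 stood at 50.3, 43.0 and 46.0 CPM with DMSO and at 39.3, 32.8 and 25.9 CPM with leflunomide, without overlap and with a wide spread.

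The count of 6 depended on the libraries and the fit. It was 1 (Pfkp) without DMSO replicate 1, without DMSO replicate 2 or without leflunomide replicate 2, where 13, 26 and 10 of all genes were called. It was 4 (Pfkl, Pfkp, Aldoa and Ldha) without DMSO replicate 3, the library rich in ribosomal RNA precursor, where 166 of all genes were called in place of 351. It was 11 by DESeq2 (741 of all genes), 13 with sample quality weights in limma (2816) and 17 with all 27 libraries in 1 fit (2532), where 16 were lower and Gbe1 was higher. Each column name carries a serial number, and libraries were ranked by it within their group. With this rank as a block the count was again 6 (2.79% of all genes called), with Slc2a1 called (-0.52, adjusted p = 0.036) and Gapdh not (adjusted p = 0.071). Mitochondrially encoded mRNA took 2.99% to 3.11% of counts with leflunomide and 2.1% to 2.70% with DMSO, without overlap, and its part in the result was not tested. The 6 epithelial markers summed to 1314 to 1466 CPM with leflunomide and 1584 to 1681 CPM with DMSO, without overlap, and this was not tested either. Outside all ribosomal RNA genes, the 34 genes took 0.991% ± 0.0263 of counts with DMSO and 0.808% ± 0.0744 with leflunomide (SD, n = 3), again without overlap.

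**Figure D5:**
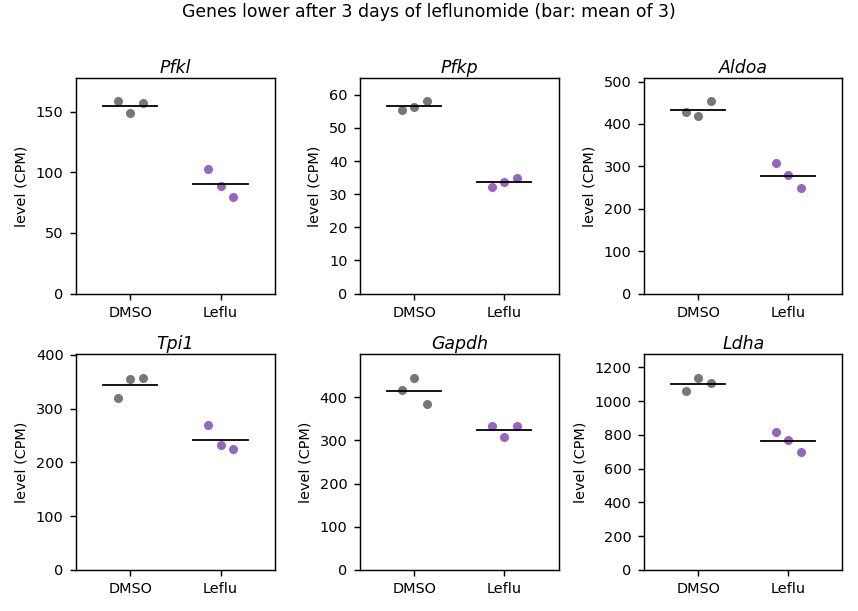
Level of the 6 genes called lower after 3 days of leflunomide, in CPM from 0, in the 3 DMSO and 3 leflunomide libraries; bars mark means. In each panel every leflunomide library is below every DMSO library, and relative to its level the gap is narrowest for Gapdh.

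Pfkl and Ldha were the members that fell in both Mff clones and with leflunomide. The drug and knockout comparisons used different control libraries. Their values side by side were -0.56, -0.59 and -0.78 for Pfkl and -0.41, -0.47 and -0.54 for Ldha, in gs1_B4, gs1_C8 and leflunomide. Slc2a1 and Gbe1 were those called with 1 sign in all 4 Drp1 and Fis1 clones. The shares of all genes with either pattern were not computed, so neither overlap is read as a trait of the members. The 250 bases before the RefSeq start (GRCm38.p6) of these 4 genes are printed since each kept 1 sign across clones or comparisons, and the text returns to them. Capitals mark ACGTG or GCGTG on either strand (CACGT and CACGC when read on the other), the core letters of hypoxia response elements bound by HIF. ACGTG also lies within CACGTG, the E-box letters read by MYC, MondoA and ChREBP. The strand is that of the gene, and a second RefSeq start of Ldha is not shown.

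Ldha, chr7:46845554-46845803, + strand: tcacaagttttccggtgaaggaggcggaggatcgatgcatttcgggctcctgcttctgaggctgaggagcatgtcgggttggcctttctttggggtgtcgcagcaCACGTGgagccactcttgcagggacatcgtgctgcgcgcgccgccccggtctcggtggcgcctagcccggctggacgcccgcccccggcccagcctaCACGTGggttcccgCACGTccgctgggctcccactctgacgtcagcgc

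Pfkl, chr10:78009808-78010057, - strand: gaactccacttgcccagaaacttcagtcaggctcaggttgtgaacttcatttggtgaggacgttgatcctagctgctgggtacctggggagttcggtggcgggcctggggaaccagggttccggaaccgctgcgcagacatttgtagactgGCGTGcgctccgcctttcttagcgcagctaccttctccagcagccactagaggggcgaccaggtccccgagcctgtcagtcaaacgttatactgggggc

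Slc2a1, chr4:119108495-119108744, + strand: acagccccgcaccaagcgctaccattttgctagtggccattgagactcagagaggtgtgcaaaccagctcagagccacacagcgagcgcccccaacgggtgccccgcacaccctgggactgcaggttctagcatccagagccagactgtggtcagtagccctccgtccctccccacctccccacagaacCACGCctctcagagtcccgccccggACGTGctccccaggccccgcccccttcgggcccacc

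Gbe1, chr16:70313699-70313948, + strand: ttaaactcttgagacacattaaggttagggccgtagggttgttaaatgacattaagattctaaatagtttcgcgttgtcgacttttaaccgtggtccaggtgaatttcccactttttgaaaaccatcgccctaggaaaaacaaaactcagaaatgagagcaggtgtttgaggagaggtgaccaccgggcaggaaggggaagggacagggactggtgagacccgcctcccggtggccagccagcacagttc

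The Ldha window holds 3 such stretches, of which 2 are CACGTG, the Slc2a1 window holds 2, the Pfkl window 1 and the Gbe1 window none of these letters. Over 300-base windows (250 before and 50 after the start), 32 of the 34 genes had a RefSeq entry, with 44 windows. ACGTG or GCGTG was in 77.3% of these windows and in 43.8% of all 32851 RefSeq windows. ACGTG was in 45.5% against 19.6%, and CACGTG in 6.82% against 7.15%. The windows of the 34 genes were also richer in G and C, with a median of 60.7% against 52.7%, which moves with the same letters. A match describes the sequence and shows no binding.

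Other genes of the pathway, 88 in 4 lists of isozymes and carriers, control of flux, glycogen and transcription factors, were read beside the 34. In the knockout arm 55 were tested, with 7 to 20 higher and 13 to 24 lower per clone, where 12.1% to 24.1% of all genes were higher and 17.4% to 26.8% lower. Pdha1, the X-linked subunit that admits pyruvate to the mitochondrial citric acid cycle through pyruvate dehydrogenase, was called lower in all 6 clones. It stood at 281, 289 and 288 CPM in parental cells and at no more than 226 CPM in any clone library, including gs2_F6 (225, 226 and 218 CPM), where chromosome X had a median of 0.04. Pdk1, the kinase that switches pyruvate dehydrogenase off, fell in 4 clones (by log2 0.43 to 1.82), was at 0.05 in gs2_F6 (not called) and rose in gs1_C8 (0.72). Phka1 and Phka2, X-linked subunits of the kinase that switches glycogen phosphorylase on, fell by 1.14 and 1.27 in gs1_B11 and by 0.96 and 0.97 in gs1_B4. Phka2 was called lower in all 6 clones, while Phka1 was called lower in 4, was at 0.08 in gs2_F6 (not called) and rose in gs1_C8 (0.25). Phkg2, another subunit of that kinase, went the other way. It rose by 0.50, 0.41, 0.71, 0.32 and 0.61 in gs1B8, gs2_B4, gs1_B11, gs2_F6 and gs1_B4. In gs1_C8 Phkg2 was at -0.04 (not called). Gyg, the glycogenin that starts each glycogen particle, fell in all 6 clones, by 0.22 to 0.89.

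Among the isozymes, Eno3, the muscle enolase, rose in 5 clones (0.32 to 1.10) and fell in gs1_C8 (-1.07). Ldhd, which uses D-lactate, fell in 5 clones (by 0.63 to 2.84) and was at -0.31 in gs1_C8 (not called). Of the regulators, Egln1, the oxygen sensor that marks HIF for destruction, fell in 5 clones by 0.19 to 0.68. Both genes lie on chromosome 8, whose genes were low as a set in every clone. Its medians in gs1B8, gs2_B4, gs1_B11, gs2_F6 and gs1_B4 were -0.36, -0.57, -0.27, -0.29 and -0.26. Egln1 was at -0.31, -0.68, -0.33, -0.19 and -0.52 there, and Ldhd at -1.53, -2.84, -1.21, -2.25 and -0.63. Myc fell in gs1_B4 (208, 210.5 and 219 CPM in parental cells, 107, 111 and 122 CPM there) and rose in gs1_C8 (257, 277 and 262 CPM), so the Mff clones lay on opposite sides of parental cells for it. The Drp1 clones were also called on opposite sides for Myc, at -0.26 in gs1B8 and 0.29 in gs2_B4. In gs2_F6 Myc rose (0.16), and in gs1_B11 it was at -0.08 (not called).

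With leflunomide 7 of 54 tested genes of these lists were called, 2 higher and 5 lower, where 1.84% of all genes were higher and 0.944% lower. Pdk1 fell from 41.1, 37.7 and 39.6 CPM to 23.5, 19.97 and 23.3 CPM (-0.83, adjusted p = 0.0069). Slc16a6, a monocarboxylate carrier, fell by 0.74, and Egln3, a HIF prolyl hydroxylase that HIF itself induces, fell by 0.76. Txnip, which limits glucose uptake and is induced when glucose phosphates accumulate, rose from 6.04, 5.57 and 6.70 CPM to 12.2, 16.5 and 10.4 CPM (1.09, adjusted p = 0.026). Pdp1 and Gsk3b fell and Phkb rose, by 0.46, 0.38 and 0.38. These names beyond Pdk1 and Slc16a6 were chosen after their values were seen.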

How the data were processed

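RNA was extracted with TRIzol Plus columns and made into poly-A selected KAPA RNA HyperPrep libraries, per the labels' protocols. Reads were trimmed with Trimmomatic 0.35 and quantified with RSEM on GRCm38 (mm10), per the submitters' processing notes, and the authors deposited the gene-level expected counts in 1 table. These were rounded to whole numbers, and 91.5% of the deposited values were whole already. RSEM splits reads between near-identical copies such as Eno1 and Eno1b, so those values are uncertain. The knockout arm (21 libraries) and the drug arm (6 libraries) were each fitted with edgeR 4.0.16 (TMM scaling, filterByExpr, quasi-likelihood test, Benjamini-Hochberg adjustment over all genes tested, R 4.3.3). Genotypes were compared on counts summed per clone. The comparisons of the 6 clones share the parental libraries. Alternatives used DESeq2 1.42.0, limma 3.58.1, other scalings and filters, summed copies, a replicate block and leaving out each library. The fits were tested on simulated data. The serial numbers in the column names, ranked within each group, were checked as a pairing, though no label states one. In the drug arm all 3 pairs of the same rank deviated together (correlations of 0.118 to 0.269), in the knockout arm not all did. Single-library values are given for members called with the same sign in both clones of a genotype with an absolute log2 fold change of at least 0.5. They are also given for members called with leflunomide or called in opposite directions in a genotype's clones, and for Slc2a1, Hk2, Pfkl, Ldha, Pkm, Slc16a3 and G6pdx. For some of these genes, some groups are given as a range, as an estimate or in a figure only. Of other pathway genes, up to 4 per list were picked for naming, those called in the most clones at a mean of at least 1 CPM. Slc2a9, G6pc3, Arnt and Tfeb were picked too but are not described. The members and lists were chosen with earlier results of these data known. Promoters came from RefSeq tables.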

Additional observations from a re-analysis of the deposited data

Results flagged for a closer look

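For 5 genes the clones of a genotype were called in opposite directions against parental cells and the difference between the clones itself passed the test (edgeR, adjusted p below 0.05). Aldoc was 2.12 higher on the log2 scale in gs2_B4 than in gs1B8, and Rpia 0.35 higher. Among all genes, 2.07% were called in opposite directions in the Drp1 clones. Between the Fis1 clones, G6pdx was 0.97 higher in gs2_F6 than in gs1_B11, Pfkm 0.73 higher and Pgd 0.38 higher, where 5.29% of all genes were called in opposite directions. For G6pdx the chromosome X median was -0.73 in gs1_B11 and 0.04 in gs2_F6, and scaled within the chromosome its difference between these clones was 0.23.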

How the results depend on the processing

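The counts below are of tested members that were called. With leflunomide it was 6, and 17 with all 27 libraries in 1 fit, 11 by DESeq2, 13 with sample quality weights and 1 to 8 with 1 library left out. Of all genes, 2.79%, 17.9%, 1.34%, 22.3% and 0.0778% to 12.4% were called, in the same order. The first share is of 12603 genes (351 called). The DESeq2 share is of all 55401 genes, without the filter on low counts (741 called), and cannot be set beside the others. In gs1B8 the count was 14, and 9 to 11 with 1 library left out, where 29.5% and 23.7% to 25.5% of all genes were called. Genes called with the same sign in both Fis1 clones numbered 2, and 4 with scaling within each chromosome (an alternative chosen after seeing the data) or 2 to 4 with 1 library left out. Without these alternatives, 15% of all genes were so called. The share with that scaling was not computed. Mff against Fis1 gave 0 by edgeR and 1 by DESeq2, where 1 of 15513 and 372 of 55401 genes were called. The ranges with 1 library left out were 13 to 19 in gs2_B4, 13 to 18 in gs1_B11, 7 to 12 in gs2_F6, 18 to 20 in gs1_B4 and 19 to 21 in gs1_C8. Of all genes, 44.4% to 46.4%, 41.9% to 42.9%, 25.2% to 28.7%, 41.4% to 45.1% and 41.3% to 42.5% were then called, in the same order. For both clones the ranges were 6 to 9 members in Drp1 and 11 to 14 in Mff. Shares of all genes for both clones with 1 library left out were not computed.

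Scaling within each chromosome turned the sign of 9 log2 fold changes that were called with or without it. Sign changes with no call on either side were not counted. Under it Pgls was at 0.05002, Tkt at -0.15 and Pygb at 0.12 in gs2_B4. In gs1_B11 Slc16a1 was at 0.15, Tkt at -0.12 and Pygb at 0.13. Bsg was at 0.0492 in gs1_B4, and Slc16a1 at 0.0553 and Pgm2 at -0.0938 in gs1_C8. With the scaling, Bsg, Pgls in gs2_B4, Tkt in gs1_B11, and Slc16a1 and Pgm2 in gs1_C8 were not called. The cause was not tested beyond the chromosome medians themselves.

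The table's columns carry a separate serial number for each library, which names no batch and does not say that samples are paired. Libraries were ranked by this number within each group. As a replicate block these ranks gave 17, 16, 16, 12, 21 and 22 genes in gs1B8, gs2_B4, gs1_B11, gs2_F6, gs1_B4 and gs1_C8, where 33.9%, 53.2%, 50.6%, 35.1%, 50.7% and 50.2% of all genes were called. With leflunomide the block gave 6, with Slc2a1 in and Gapdh out. Deviations of libraries of the same rank had a mean correlation of 0.222 (-0.357 to 0.676, 63 pairs) in the knockout arm. Between ranks the mean there was -0.108. In the drug arm, pairs of the same rank had correlations of 0.118 to 0.269. Depth limited Aldoc, Eno2 and the 4 genes not tested.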

Other observations

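Arrdc4 and Txnip, arrestins that are both induced by glucose phosphates and limit glucose uptake, spread widely over the clones. Arrdc4 had 88 counts over the 3 parental libraries, 29 in gs2_B4, 147 in gs1_B4 and 714 in gs1_C8, and 0 in gs1B8, gs1_B11 and gs2_F6. Against the limit of 3 counts over a group, the parental level was at least 32.7-fold higher than in gs1B8, at least 32.6-fold higher than in gs1_B11 and at least 34.8-fold higher than in gs2_F6. Arrdc4 rose in gs1_C8 by log2 2.82 ± 0.19 (SE) and was at 0.49 ± 0.20 in gs1_B4 (edgeR, adjusted p = 0.061). Txnip stood at 5.44, 5.77 and 5.94 CPM in parental cells, at 17.6, 16.8 and 16.4 CPM in gs1_B4 and at 24.2, 26.2 and 22 CPM in gs1_C8. Both Mff clones were above every parental library for Txnip, with rises of 1.57 ± 0.11 and 2.08 ± 0.11, while it fell in gs1B8 (-0.59 ± 0.13) and gs1_B11 (-1.29 ± 0.14). The 2 Fis1 clones thus gave different Txnip values, with gs2_F6 at -0.02 ± 0.12 (not called). Txnip was chosen after its values were seen.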
